A study of Mus musculus with 4 samples.

Results

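miR-103 and miR-107 are closely related microRNAs (miRNAs), short RNAs that guide Argonaute proteins to matching sites in messenger RNAs. Every listed row that is an arm of miR-103 or miR-107 was taken by name, which gave 5 of 1091 mature miRNAs in the deposited tables. They are the 3p arms mmu-miR-103-3p and mmu-miR-107-3p and the 5p arms mmu-miR-103-1-5p, mmu-miR-103-2-5p and mmu-miR-107-5p. Small RNA was sequenced from CD4+ T cells of C57BL/6 mice, either wild type (WT) or Cbl-b-/-, that is, without Cbl-b, a ubiquitin ligase that restrains T cell activation. Cells of each genotype were left unstimulated, which the labels also call naive, or were stimulated through the T cell receptor with anti-CD3 for 48 h. Each of the 4 groups is 1 library. The labels give no animal number, age or pooling for a library, and they name neither a second stimulus beside anti-CD3 nor how the Cbl-b-/- allele was made. The tables hold miRNAs, so neither the loss of the Cblb transcript nor the CD4+ identity of the cells was checked here. The state labels were checked with miR-155-5p, which activated T cells make, and miR-150-5p, which resting lymphocytes hold at a high level. In an edgeR fit of genotype plus state over the 4 libraries, miR-155-5p was higher with stimulation by 3.77 on the log2 scale (adjusted p = 0.000281), and miR-150-5p fell by 1.27 (adjusted p = 0.00100).

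In mice, miR-103 is made from 2 genes and miR-107 from 1, and each gene lies inside a gene for a pantothenate kinase, the enzyme that starts coenzyme A synthesis. The family belongs to the wider miR-15/miR-107 group, which shares the letters AGCAGC near the 5′ end. Members are known from mouse and cell studies to lower Dicer and, in liver and fat, caveolin-1, and to act on insulin sensitivity and the cell cycle. By RefSeq coordinates on GRCm38, which GENCODE M21 gives identically, the Mir103-1 hairpin lies on chromosome 11 at 35782396 to 35782481, plus strand, in intron 5 of Pank3. The Mir103-2 hairpin lies on chromosome 2 at 131288052 to 131288137, plus strand, in intron 5 of Pank2. The Mir107 hairpin lies on chromosome 19 at 34820687 to 34820773, minus strand, in intron 5 of Pank1. None of the 3 overlaps an exon, and introns are numbered on the principal transcript of each host gene.

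All 5 members had a mature sequence in RefSeq (GRCm38.p6). The sequences of the 3p arms are shown because 1 base near the 3′ end is all that separates the pair in sequencing; capitals mark the seed, bases 2 to 8.
miR-103-3p: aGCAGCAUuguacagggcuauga
miR-107-3p: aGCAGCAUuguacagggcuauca
With positions counted from 1 at the 5′ end, the only difference from miR-103-3p to miR-107-3p is G22C. A read that starts at base 1 and is 21 bases or shorter cannot be given to either by its sequence. The labels do not state how such reads were counted. The 5p arms, which come from the other side of the hairpins, are shown because 2 of them tell the miR-103 genes apart, as the 3p arm cannot.
miR-103-1-5p: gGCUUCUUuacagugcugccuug
miR-103-2-5p: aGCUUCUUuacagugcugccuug
miR-107-5p: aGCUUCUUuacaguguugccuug
From miR-103-1-5p to miR-103-2-5p the difference is G1A, and from miR-103-2-5p to miR-107-5p it is C16U. A miR-103 5p read that lacks base 1 therefore cannot be given to either miR-103 gene by its sequence. In the hairpins, with both arms in capitals, the 3p arm starts at base 52 in each, and 14 bases lie between the arms.
Mir103-1: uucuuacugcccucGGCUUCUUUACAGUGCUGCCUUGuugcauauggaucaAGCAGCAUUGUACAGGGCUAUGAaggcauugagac
Mir103-2: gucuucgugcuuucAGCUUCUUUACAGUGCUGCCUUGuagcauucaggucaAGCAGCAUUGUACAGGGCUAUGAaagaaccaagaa
Mir107: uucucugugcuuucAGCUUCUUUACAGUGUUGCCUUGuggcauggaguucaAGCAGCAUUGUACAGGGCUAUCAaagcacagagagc
The 3p arm of miR-103 reads the same in both of its hairpins, so its count is the sum over the Pank3 and Pank2 genes.

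The libraries held 11561693 to 15436447 counted reads, and 899 to 991 miRNAs had at least 1 read. Levels are given as CPM, that is, a count divided by the sum of its column and multiplied by 1000000, with 95% exact Clopper-Pearson intervals. These intervals, like all intervals below, cover counting error only, because reads amplified by PCR without molecular identifiers are not independent molecules and no group has a replicate. A difference between a pair of libraries therefore has no replicate check. As the labels do not tie the libraries to separate animals or cultures, p-values of the fit over all 4 measure only the spread between these libraries.

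miR-103-3p was the more abundant arm in every library. Its count was 42248 in WT unstimulated, 39310 in Cbl-b-/- unstimulated, 56130 in WT stimulated and 49837 in Cbl-b-/- stimulated cells. These counts correspond to 2737 CPM (2711 to 2763), 2804 CPM (2777 to 2832), 4293 CPM (4258 to 4329) and 4311 CPM (4273 to 4348) in the same order. Both stimulated libraries lay above both unstimulated ones on this scale, though not in WT cells with DESeq2 size factors, and within each state the genotypes stood close together. By level, miR-103-3p ranked 35th, 37th, 32nd and 30th among the listed miRNAs.

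miR-107-3p showed the opposite order of states at a lower level. Its count was 9181 in WT unstimulated, 8242 in Cbl-b-/- unstimulated, 6304 in WT stimulated and 6029 in Cbl-b-/- stimulated cells. In the same order its level was 595 CPM (583 to 607), 588 CPM (575 to 601), 482 CPM (470.3 to 494) and 521 CPM (508 to 535). Both stimulated libraries lay below both unstimulated ones, and ranks were 72, 73, 83 and 83. Added together, the 3p arms reached 3332, 3392, 4775 and 4832 CPM, so the sum followed miR-103-3p on this scale, whereas with TMM or DESeq2 factors its stimulation log2 ratio was below 0 in both genotypes.

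**Figure D1:**
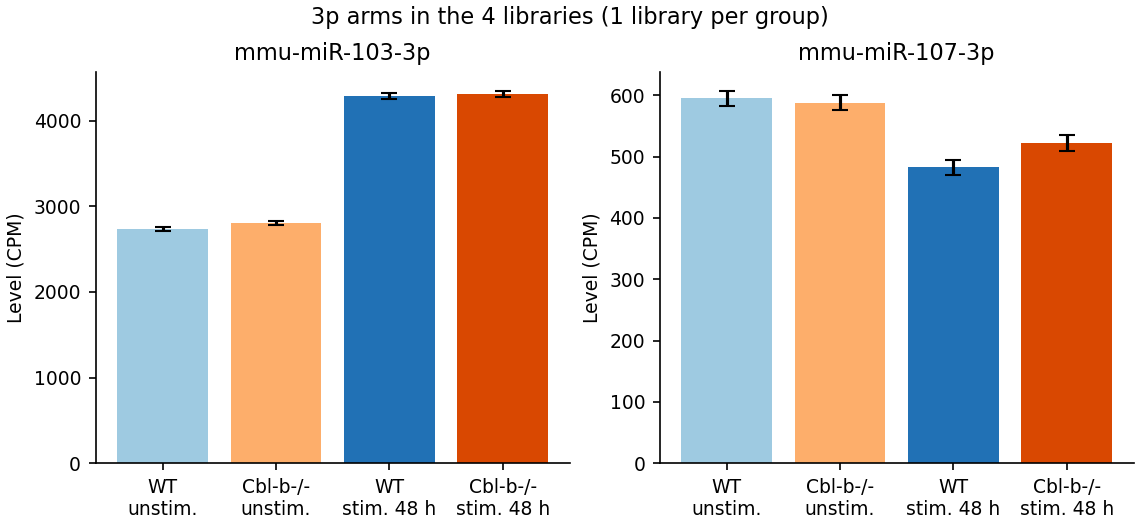
Level in CPM (vertical axis, starting at 0) of miR-103-3p and miR-107-3p in each of the 4 libraries; error bars are 95% Clopper-Pearson intervals of counting error. miR-103-3p stands at 2737 and 2804 CPM without and 4293 and 4311 CPM with anti-CD3 (an order lost in WT with DESeq2 size factors), and miR-107-3p at 595 and 588 CPM without and 482 and 521 CPM with it.

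With anti-CD3, and on column sums, miR-103-3p was 1.57-fold higher in WT cells (log2 ratio 0.65, 95% interval 0.63 to 0.67) and 1.54-fold higher in Cbl-b-/- cells (log2 ratio 0.62, 0.60 to 0.64). miR-107-3p was 1.23-fold lower in WT (log2 ratio -0.30, -0.35 to -0.26) and 1.13-fold lower in Cbl-b-/- cells (log2 ratio -0.17, -0.22 to -0.13). Neither arm reached the size rule used for pairs of libraries: a 2-fold ratio, a mean of at least 50 CPM in the pair, and a log2 ratio whose interval leaves out 0. That rule was passed by 109 of 220 miRNAs in WT (49.5%), by 111 of 223 in Cbl-b-/- cells (49.8%), and by 0 of the 2 arms in either. At a 1.5-fold limit, 150 of 220 (68.2%) and 152 of 223 (68.2%) passed, and miR-103-3p passed in both genotypes while miR-107-3p passed in neither. Most miRNAs had a higher CPM in the stimulated libraries, the median log2 ratio being 0.40 for WT and 0.34 for Cbl-b-/- cells, both below 0 with TMM or DESeq2 factors. Relative to this median, miR-103-3p stood 0.25 above in WT and 0.28 above in Cbl-b-/- cells, and 93 of 220 and 94 of 223 miRNAs had a higher ratio. miR-107-3p stood below the median, at -0.70 and -0.51 relative to it, and 149 and 139 miRNAs had a higher ratio.

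In the edgeR fit of genotype plus state, which has 1 residual degree of freedom and treats any interaction as residual, miR-103-3p rose with stimulation by 0.63 on the log2 scale (SE 0.072, adjusted p = 0.00183). miR-107-3p had a log2 value of -0.24 (SE 0.092, adjusted p = 0.0719) and was not called by edgeR at 0.05. The state effect was called for 270 of 334 miRNAs tested (80.8%), 174 higher and 96 lower, so 1 called member of 2 was no more than the background. This split depended on how libraries were scaled. With edgeR's TMM factors the calls were 122 higher and 139 lower, with DESeq2 119 higher and 127 lower, and with TMM factors computed after the level filter 146 higher and 121 lower.

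The members' own calls moved with the same choice. With TMM factors miR-103-3p had a state log2 value of 0.03 (edgeR, adjusted p = 0.712), and miR-107-3p fell by 0.84 (edgeR, adjusted p = 0.00233). In the DESeq2 fit the values were 0.10 for miR-103-3p (adjusted p = 0.518) and -0.77 for miR-107-3p (adjusted p = 1.97e-06). TMM and DESeq2 factors shifted every WT stimulation log2 ratio by -0.61 and -0.65, and every Cbl-b-/- one by -0.60 and -0.54. Over 6 scalings, the WT ratio of miR-103-3p ran from -0.00085 with DESeq2 factors to 0.65 with column sums, above 0 in 5 of 6, and its Cbl-b-/- ratio from 0.02 to 0.62. The ratio of miR-107-3p was below 0 under all 6, at -0.95 to -0.30 for WT and -0.77 to -0.17 for Cbl-b-/- cells.

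**Figure D2:**
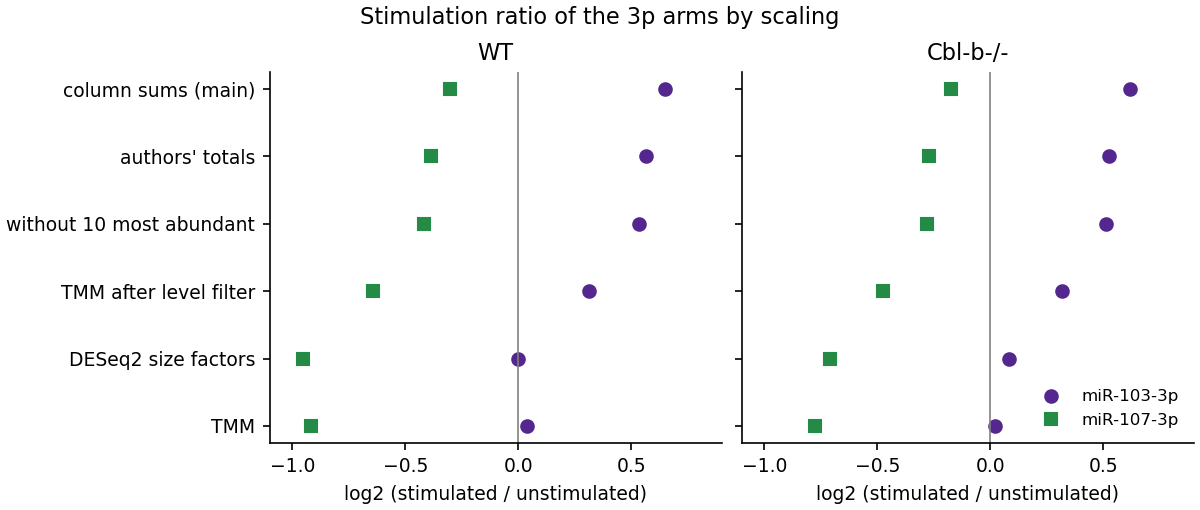
Stimulation log2 ratio (horizontal axis) of miR-103-3p and miR-107-3p in each genotype under 6 ways of scaling the libraries (vertical axis). Points of miR-107-3p lie left of 0 under all 6, and those of miR-103-3p run from about 0 to 0.65.

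The composition of the pair within a library does not depend on scaling. miR-107-3p made up 17.9% of the reads of both 3p arms in WT unstimulated (95% interval 17.5% to 18.2%) and 17.3% in Cbl-b-/- unstimulated cells (17.0% to 17.7%). In stimulated cells its share was 10.1% in WT (9.86% to 10.3%) and 10.8% in Cbl-b-/- (10.5% to 11.1%). The states did not overlap, and both genotypes moved the same way. There were 4.60 and 4.77 reads of miR-103-3p for each read of miR-107-3p without, and 8.90 and 8.27 with anti-CD3. The ratio of miR-107-3p to miR-103-3p was thus 1.93-fold lower in stimulated WT cells (log2 change -0.95, -1.002 to -0.903) and 1.73-fold lower in stimulated Cbl-b-/- cells (-0.79, -0.84 to -0.74). As log2 ratios, the unstimulated libraries averaged -2.23 ± 0.037 (SD, n = 2) and the stimulated ones -3.10 ± 0.076 (SD, n = 2). The difference of -0.87 was larger than the spread between genotypes, but an exact permutation test of 2 against 2 cannot go below p = 0.333, which is the two-sided value it gave. The tables hold no read lengths, so the part of reads too short to reach base 22 in this share was not tested.

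**Figure D3:**
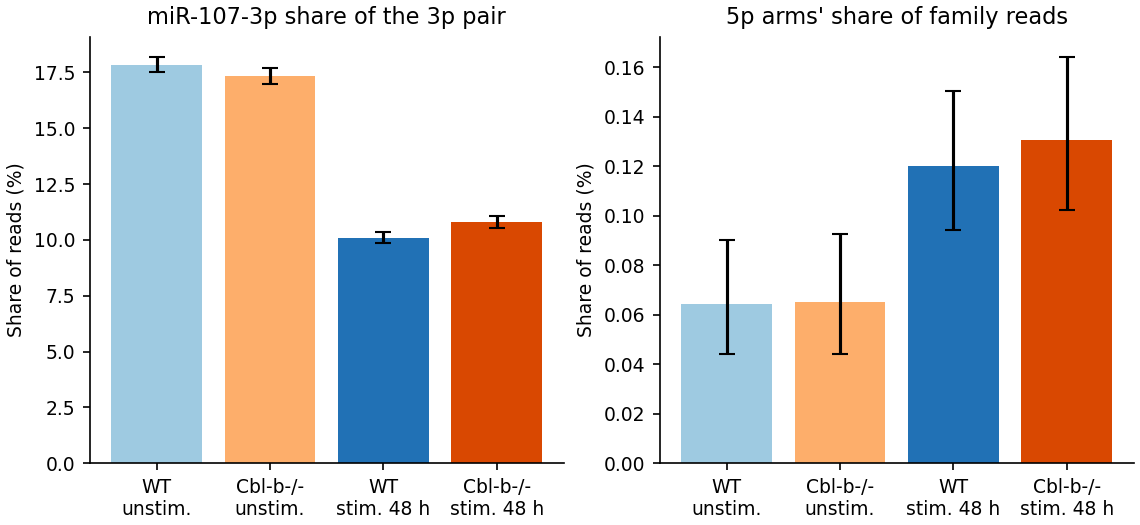
Share of miR-107-3p among the reads of miR-103-3p plus miR-107-3p in percent (vertical axis, starting at 0) in each of the 4 libraries; error bars are 95% Clopper-Pearson intervals. The unstimulated libraries stand at 17.9% and 17.3% and the stimulated ones at 10.1% and 10.8%.

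Between genotypes the 3p arms differed little. In unstimulated cells, the log2 ratio of Cbl-b-/- over WT was 0.04 for miR-103-3p (0.02 to 0.05) and -0.02 for miR-107-3p (-0.06 to 0.03). In stimulated cells it was 0.01 for miR-103-3p (-0.01 to 0.02) and 0.11 for miR-107-3p (0.06 to 0.16). The sign of the miR-103-3p values turned with TMM factors in both states, and that of miR-107-3p in stimulated cells did not. All 4 values are smaller than the spread of these ratios over all miRNAs at 50 CPM or more, whose robust SD was 0.198 unstimulated and 0.257 stimulated. The 2-fold rule was passed by 3 of 197 miRNAs in unstimulated (1.52%) and 12 of 230 in stimulated cells (5.22%), and by 0 of the 2 arms in either. In the edgeR fit the genotype effect was 0.02 for miR-103-3p (SE 0.072, adjusted p = 0.946) and 0.05 for miR-107-3p (SE 0.092, adjusted p = 0.840). edgeR called 8 of 334 miRNAs for genotype (2.4%), and 42 had an unadjusted p under 0.05; neither 3p arm was among them.

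The authors' deposited tables, which give WT over Cbl-b-/-, carry a call column that reads No_change for all 5 arms in both states. For miR-103-3p the authors' deposited table gives a fold change of 1.013 unstimulated (p = 0.928, from a test the labels do not name) and 0.973 stimulated (p = 0.847). For miR-107-3p the authors' deposited table gives 1.05 (p = 0.733) and 0.903 (p = 0.477). Over all miRNAs at 50 CPM or more, the log2 fold changes in the authors' deposited tables differ from those of their normalized columns by a constant, 0.049 unstimulated and -0.049 stimulated.

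The response to anti-CD3 was also set side by side between genotypes. The Cbl-b-/- stimulation log2 ratio minus the WT one was -0.03 for miR-103-3p (-0.06 to -0.00) and 0.13 for miR-107-3p (0.06 to 0.20). Over 223 miRNAs the median absolute difference was 0.164 and the robust SD 0.213, and 6 of 223 (2.69%) reached 1 in log2, neither 3p arm among them. With 1 library a group this difference has no test.

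The 5p arms were rare, and none reached the 10 CPM needed for the edgeR fit. miR-103-2-5p had 16 reads in WT unstimulated, 22 in Cbl-b-/- unstimulated, 49 in WT stimulated and 54 in Cbl-b-/- stimulated cells. In CPM this is 1.04, 1.57, 3.75 and 4.67, so both stimulated libraries were higher, with log2 ratios of 1.85 for WT (1.02 to 2.77) and 1.57 for Cbl-b-/- cells (0.83 to 2.36). miR-103-1-5p, the arm of the Pank3 gene, had 1, 2, 18 and 6 reads in the same order. Its stimulation log2 ratio was 4.41 in WT, with an interval from 1.75 upward that rests on 1 read, and 1.86 in Cbl-b-/- cells, with an interval that takes in 0. miR-107-5p had 16, 7, 8 and 13 reads, or 1.04, 0.499, 0.612 and 1.12 CPM, with no order by state or genotype.

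As a share of all miR-103 and miR-107 reads, the 5p arms made up 0.0641% in WT unstimulated (33 of 51462 reads) and 0.0651% in Cbl-b-/- unstimulated cells (31 of 47583). In stimulated cells the share was 0.120% in WT (75 of 62509) and 0.130% in Cbl-b-/- (73 of 55939). Among the miR-103 arms alone, 5p reads were 0.0402% (0.0234% to 0.0644%) and 0.0610% (0.0391% to 0.0908%) without, and 0.119% (0.0924% to 0.151%) and 0.120% (0.0918% to 0.155%) with anti-CD3. These intervals did not overlap between states. For miR-107 the 5p share was 0.174%, 0.0849%, 0.127% and 0.215%, without such a separation. Among the 5p reads miR-107-5p made up 48.5% (30.8% to 66.5%) and 22.6% (9.59% to 41.1%) without, and 10.7% (4.72% to 19.9%) and 17.8% (9.84% to 28.5%) with anti-CD3. The intervals of this share did not overlap between the states in WT and did in Cbl-b-/- cells, where a difference was not detectable at this depth.

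**Figure D4:**
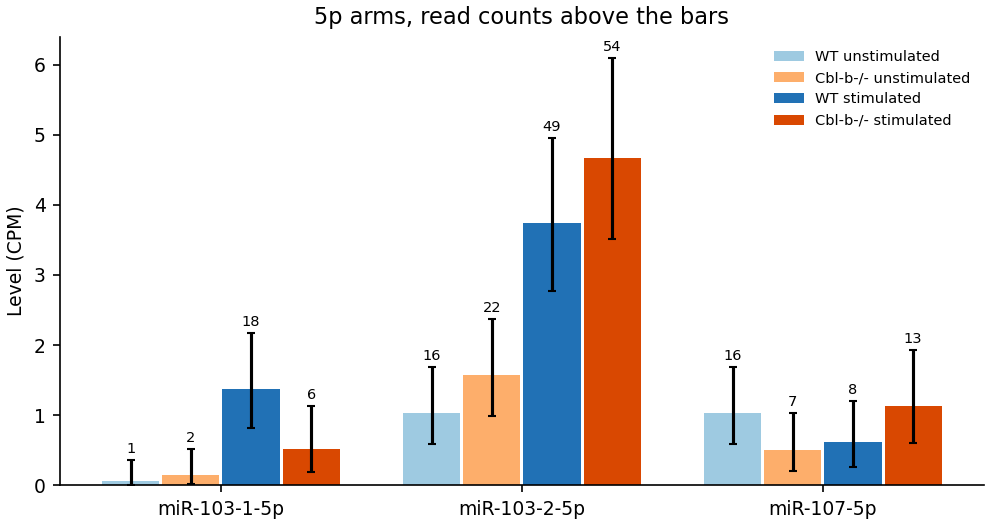
Reads of the 3 5p arms in each library, in CPM on the vertical axis (starting at 0), with 95% Clopper-Pearson intervals as error bars. miR-103-2-5p stands at 1.04 and 1.57 CPM without and 3.75 and 4.67 CPM with anti-CD3, and miR-107-5p has no order by state.

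The other members of the miR-15/miR-107 group share AGCAGC with the family but carry it 1 base further from the 5′ end in the examples shown here, with AGCAGC in capitals.
miR-16-5p: uAGCAGCacguaaauauuggcg
miR-15a-5p: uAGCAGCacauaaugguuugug
miR-322-5p: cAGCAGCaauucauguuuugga
Among 905 listed miRNAs with a RefSeq sequence, 9 hold AGCAGC within bases 1 to 8 of the mature strand, namely the 2 3p arms and 7 relatives, and 2 have the seed GCAGCAU, both of them the 3p arms. Of the 7 relatives, miR-195a-5p, miR-497a-5p and miR-503-5p stayed under 50 CPM, and 4 were compared. miR-16-5p, the most abundant relative and known to restrain the cell cycle, stood at 70180 and 67857 CPM without and 42121 and 36712 CPM with anti-CD3. Its stimulation log2 ratio was -0.74 in WT and -0.89 in Cbl-b-/- cells, and that of miR-15a-5p, made with miR-16 from the same locus, was -0.65 and -0.77. miR-322-5p, the mouse counterpart of human miR-424, was at -1.32 and -1.15, and on column sums it alone of the 4 passed the 2-fold rule, in both genotypes. With TMM or DESeq2 factors 3 of 4 passed it as lower in each genotype. Over all miRNAs tested, 53.6% passed in either direction in WT and 53.4% in Cbl-b-/- cells with TMM factors. With DESeq2 factors 53.6% passed in each genotype. miR-15b-5p was at 0.01 and -0.07, and in WT it was below 0 under the 5 other scalings. The median of the 4 relatives was -0.69 in WT and -0.83 in Cbl-b-/- cells, against 0.40 and 0.34 over all miRNAs tested; with TMM factors the medians of the relatives were -1.30 and -1.43. Within the reads of the whole miR-15/miR-107 group, which again does not depend on scaling, the 3p arms of miR-103 and miR-107 made up 4.25% and 4.48% without, and 9.38% and 10.7% with anti-CD3. Most reads of the group are miR-16-5p, with 1083324 of 1208811 in WT unstimulated and 550720 of 665404 in WT stimulated cells. In Cbl-b-/- cells they were 951174 of 1062179 without and 424454 of 521649 with anti-CD3. The share of the 3p arms in the group therefore largely sets them against miR-16-5p. Between genotypes the medians of the 4 relatives were -0.07 unstimulated and -0.18 stimulated, with 0 of 4 past the 2-fold rule.

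miR-103-3p is often used as a reference for normalizing miRNA measurements, so its spread was set beside 13 other miRNAs used that way. The spread is the range of log2(CPM + 1) over the 4 libraries, and its median over 223 miRNAs at 50 CPM or more was 1.18. On column sums, miR-107-3p had a range of 0.302 and ranked 18th from the smallest, and miR-103-3p had a range of 0.655 and ranked 53rd. This order turned with the scaling. With TMM factors miR-103-3p had a range of 0.0552 and ranked 1st, and miR-107-3p had 0.914 and ranked 74th. With DESeq2 factors the ranges were 0.0825 (rank 2) and 0.951 (rank 77). TMM factors computed after the level filter gave 0.373 (rank 23) and 0.644 (rank 58). Which 3p arm was the steadier one therefore cannot be told from these libraries. Again on column sums, miR-25-3p (0.156, rank 3), miR-93-5p (0.203, rank 8) and let-7a-5p (0.265, rank 14) varied less than either 3p arm, whereas with TMM or DESeq2 factors 0 of the 13 varied less than miR-103-3p. miR-425-5p, miR-423-5p and miR-191-5p lay between the 3p arms, at ranks 22, 32 and 47. miR-24-3p, miR-361-5p, miR-423-3p, miR-16-5p, miR-320-3p, miR-26a-5p and miR-186-5p varied more, at ranks 57 to 159, with miR-186-5p at a range of 1.94. The 13 had median stimulation log2 ratios of 0.30 (WT) and 0.32 for Cbl-b-/- cells, and genotype medians of -0.04 unstimulated and -0.18 stimulated. With TMM factors both stimulation medians were below 0.

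By largest difference in centred log2(CPM + 1) over the 4 libraries, the miRNAs most like the summed 3p arms among 221 compared were let-7d-5p (0.0578), miR-484 (0.0717), miR-872-5p (0.0733), miR-101b-3p (0.0869) and miR-24-3p (0.112). let-7d-5p stood at 1507, 1455, 2159 and 2035 CPM in WT unstimulated, Cbl-b-/- unstimulated, WT stimulated and Cbl-b-/- stimulated cells. Likeness over 4 libraries is a description only.

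Pairs of miRNAs with the same seed, at most 2 mismatches and lengths within 1 base gave a yardstick for the shift within the 3p pair. There were 33 such pairs among the 181 miRNAs at 50 CPM or more with a sequence, 1 of them with identical sequences and counts, whose difference is 0 by construction. For each pair, the difference of the stimulation log2 ratios was averaged over both genotypes, and the sign of this mean was then dropped. For miR-103-3p and miR-107-3p it was 0.873, rank 13 from the largest. The median of the 32 pairs that are not identical was 0.766 (0.749 over all 33). The shift within the pair thus lay above this median but was not among the largest. miR-146a-5p and miR-146b-5p, for example, with 2 mismatches, differed by 1.86. Of the other pairs with 1 mismatch, miR-181b-5p and miR-181d-5p (1.83), miR-106a-5p and miR-17-5p (1.39), and miR-30a-5p and miR-30e-5p (1.14) differed more. The rest of those with 1 mismatch differed less. Many pairs combine members of the let-7 family and share a miRNA, so the pairs are not independent and the rank is a description only.

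**Figure D5:**
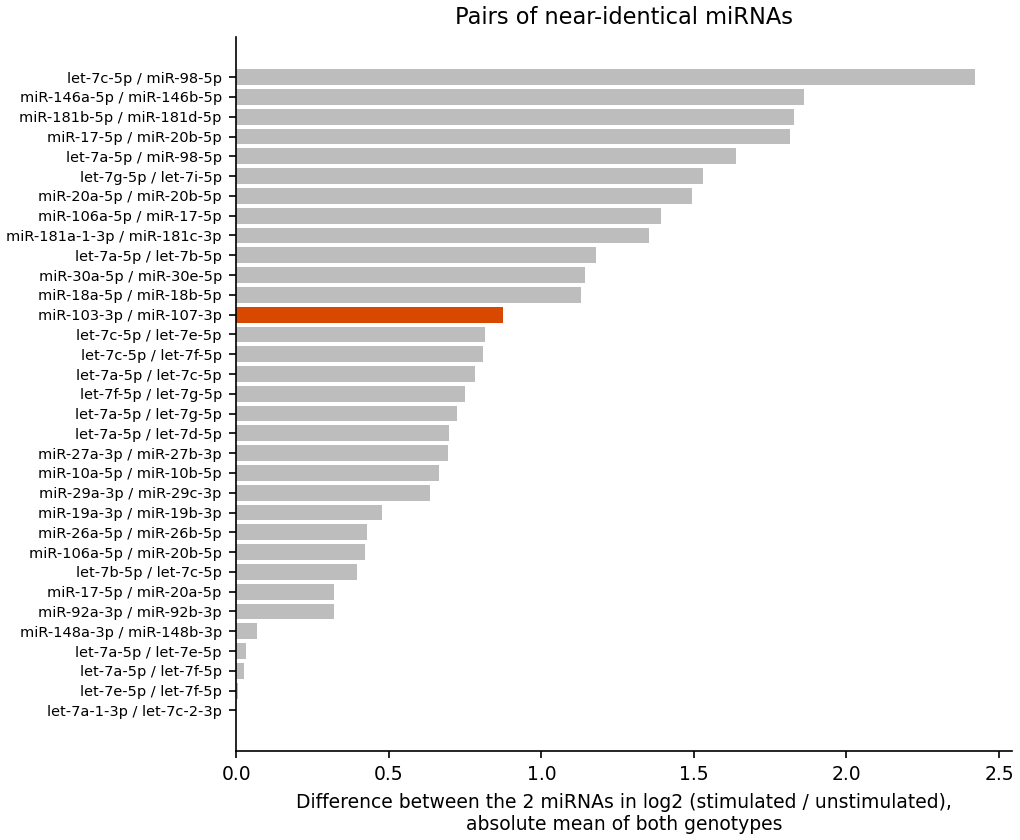
Pairs of near-identical miRNAs (33, vertical axis), ordered from the largest value at the top to the smallest. The horizontal axis, starting at 0, is the difference of their stimulation log2 ratios, as the absolute value of its mean over both genotypes. The miR-103-3p and miR-107-3p pair, at 0.873, is rank 13, and the median over all 33, 1 identical pair included, is 0.749.

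Markers of other cells were low but moved with state. In these bulk samples a change in the number of cells of a type and a change in RNA per cell cannot be told apart. The sums below are on column sums, and other scalings would shift them. All 5 erythroid miRNAs were detected in every library, with sums of 1408 and 1652 CPM without and 390 and 915 CPM with anti-CD3. miR-486a-5p and miR-486b-5p had nearly equal levels (662 and 661 CPM in WT unstimulated cells), so these sums may hold the same reads more than once. miR-451a went from 71.6 to 24.4 CPM with anti-CD3 in WT, but only from 99.3 to 91.8 CPM in Cbl-b-/- cells. The 2 arms of the myeloid miR-223 summed to 485 and 413 CPM without and 83.4 and 69.4 CPM with it. Both arms of miR-126a, of endothelial cells and megakaryocytes, summed to 119 and 71.6 CPM without and 334 and 324 CPM with it. The 4 stromal miRNAs summed to 166 and 171 against 45.6 and 49.9 CPM, with miR-214-3p at 0 in the WT stimulated library. The 7 epithelial miRNAs summed to 1082 and 1065 against 562 and 548 CPM, with miR-205-5p at 0 in both stimulated libraries. Of the 7, only miR-200c-3p was higher with anti-CD3, at 20.1 and 18.0 CPM without and 38.5 and 31.7 CPM with it. miR-200b-3p was nearly level in Cbl-b-/- cells, at 46.8 CPM without and 45.4 CPM with it. The liver miRNA and the 1 of 3 muscle miRNAs that is listed stayed under 1 CPM. Their part in the shift from miR-107-3p to miR-103-3p was not tested.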

How the data were processed

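Small RNA libraries were made from total RNA of 4 samples with an NEB small RNA kit, per the labels' protocols. The deposited tables, 1 per state, hold whole-number read counts per mature miRNA for a WT and a Cbl-b-/- library. The authors also deposited a normalized score per library (counts divided by 1 constant), the fold ratio of WT over Cbl-b-/-, its log2 and an unadjusted p-value from a test not given in the sources used here. Per the submitters' processing notes, cutadapt 1.7.1 and GRCm38.p5 were used, with no role stated. For the aligner and for reads that match several miRNAs, the labels state nothing.

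Counts were divided by their column sum. Because the states stand in separate tables, only counts were compared across them. Pairs of libraries were described by log2 ratios with Clopper-Pearson intervals and the size rule, with no p-value. A fit of genotype plus state used edgeR 4.0.16 (quasi-likelihood test, column sums as library sizes, mean level 10 CPM or more, Benjamini-Hochberg adjustment over 334 miRNAs, threshold 0.05) in R 4.3.3; DESeq2 1.42.0 was an alternative. The edgeR fit was tested on simulated data with TMM factors, not with the column sums of the main fit. The intervals of the ratios were tested on simulated counts. The outcomes are not reported here. Differences of ratios used counts plus 0.5. The miRNAs named are the family's arms, the relatives and reference miRNAs at 50 CPM or more, and the 5 miRNAs most like the summed 3p arms. Also named are 2 checks of state and markers of other cells from a list. The relatives under 50 CPM, the miRNAs most like each single arm and the other near-identical pairs were named after their values were seen. Members and lists were chosen with earlier results of these data known. Alternatives were other scalings, level minimums and fold limits, summing all arms, and DESeq2. Sequences are RefSeq's (GRCm38.p6).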

Additional observations from a re-analysis of the deposited data

Results flagged for a closer look

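The log2 ratio of miR-107-3p to miR-103-3p was lower in Cbl-b-/- than in WT cells without stimulation (by a log2 difference of -0.05) and higher with anti-CD3 (0.11). These opposite signs drew attention to it. The genotype differences of the states lie 0.159 apart on the log2 scale. With 1 library a group the difference between the states was not tested.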

How the results depend on the processing

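The summed 3p arms depended on scaling, and the counts over all miRNAs on level limits and, for genotype in the fit, on scaling. Each scaling shifts every log2 ratio of a comparison by the same amount, and a level limit changes which miRNAs are counted. Why the scalings differ was not tested. For the sum of both 3p arms, the Cbl-b-/- over WT log2 ratio of 0.03 in unstimulated cells became -0.0276 with TMM factors, -0.0811 with DESeq2 factors and 0.0468 with TMM factors computed after the level filter, a setting chosen after seeing the data, as were the ranges under other scalings. In stimulated cells, 0.02 became -0.0247 with TMM factors and 0.0731 with TMM after the filter. The WT stimulation ratio of 0.52 became -0.0935 (TMM), -0.13 (DESeq2), 0.40 (without the 10 most abundant miRNAs of any library), 0.43 (totals back-calculated from the authors' normalized values) and 0.18 (TMM after the filter). The Cbl-b-/- ratio of 0.51 became -0.0905, -0.0273, 0.40, 0.41 and 0.21 in the same order. The difference of these ratios between genotypes, -0.01, became 0.10 with DESeq2 factors and 0.0263 with TMM after the filter. Counts past the size rule, at a minimum of 10 CPM, 200 CPM and none, were 11, 0 and 58 between genotypes in unstimulated cells, 23, 6 and 83 in stimulated cells, 179, 57 and 407 for stimulation in WT, and 182, 58 and 402 in Cbl-b-/- cells. The number of miRNAs tested changes with the minimum, so these counts are not shares of a common total. At 50 CPM, a 1.5-fold limit gave 9 of 197 miRNAs between genotypes in unstimulated and 26 of 230 in stimulated cells. Without a level filter, edgeR called 451 of 1091 miRNAs tested for state and 23 of 1091 for genotype. The main fit called 270 and 8 of 334, so for state more calls were a smaller share. Of 334 miRNAs, genotype calls were 4 with TMM, 17 with DESeq2 and 3 with TMM after the filter. The edgeR genotype value of miR-103-3p turned to -0.0272 with TMM factors. Of 77 alternatives to these main results, 36 moved and 41 did not. The latter include all 4 shares of miR-107 and the ratios of the summed 3p arms when all arms were summed. The 5p arms are 0.0641% to 0.130% of family reads, so adding them could hardly move these values. Those alternatives therefore say nothing about how firm the results are. No paired analysis was possible because each group is 1 library, and leaving out a library leaves the fit no residual degree of freedom. Depth limits the 5p arms, at 1 to 54 reads.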

Other observations

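Other miRNAs that lie in introns of protein-coding genes, a list of 21, were compared in the same way. On column sums, their median stimulation log2 ratio was 0.06 in WT, with 4 higher and 2 lower past the 2-fold rule, and 0.20 in Cbl-b-/- cells, with 3 higher and 3 lower, where 49.5% and 49.8% of all miRNAs tested passed it. With TMM factors the medians were -0.55 and -0.40, with 3 higher and 5 lower in WT and 2 higher and 6 lower in Cbl-b-/- cells. Over all miRNAs tested, 53.6% in WT and 53.4% in Cbl-b-/- cells passed the rule with TMM factors. With DESeq2 factors the medians of the list were -0.59 and -0.33. Their genotype medians were -0.07 in unstimulated and -0.14 in stimulated cells, with 0 of 21 past the rule in either.

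Each 3p arm alone had a different set of miRNAs with the most similar pattern, named after their values were seen. For miR-103-3p these were miR-101b-3p, miR-24-3p, let-7i-5p, let-7d-5p and miR-92a-3p, with largest differences of 0.0400 to 0.115 on the log2 scale. For miR-107-3p they were miR-16-2-3p, let-7f-5p, miR-138-5p, miR-652-3p and miR-669c-5p, at 0.0799 to 0.1002. No miRNA was on both lists of 5, but this follows from how far apart the arms themselves lie and is not a separate result. On column sums, miR-103-3p had stimulation log2 ratios of 0.65 in WT and 0.62 in Cbl-b-/- cells. Those of miR-107-3p were -0.30 and -0.17. The largest differences within either list were much smaller than this distance.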
